A study of Mus musculus with 6 samples.

Results

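Collagens are triple-helical matrix proteins, each built from 3 alpha chains, and the genes of all these chains were followed in bone-forming cells on a coated and an uncoated metal scaffold. The chain genes were found by symbol: a RefSeq symbol of assembly GRCm38.p6 made of Col, a number, the letter a and a number. This rule, which uses no measured value, gave 44 genes, of which 43 had a probe on the array and 36 had a probe that could be tested, among 15535 genes tested in all. The cells were MC3T3-E1, a clonal mouse pre-osteoblast line derived from calvaria, in which collagen production precedes mineral deposition. On De-HA scaffolds, which are FeMnSi scaffolds that were dealloyed and given a bioactive coating, 3 samples were taken, and on original FeMnSi scaffolds 3 samples were taken. Both groups were cultured for 3 days before total RNA was amplified, labelled with Cy3 and applied to an Agilent mouse array, 1 for each sample. No other strain, genotype, drug or time point is part of the comparison, and it does not separate the dealloying from the coating, since De-HA scaffolds had both.

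Fibril-forming collagens make up the bulk of bone matrix, where type I collagen, a trimer of 2 Col1a1 chains and 1 Col1a2 chain, is the main component. Type IV collagens form the sheet-like network of basement membranes, and FACIT collagens, whose helix is interrupted, sit on the surface of fibrils. The other families include beaded filaments of type VI, short-chain networks of types VIII and X, multiplexins that carry an antiangiogenic fragment at their end, and transmembrane collagens. Chains are co-translationally modified, folded in the endoplasmic reticulum, trimmed by proteases outside the cell and then crosslinked.

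Levels are given as the log2 of the background-corrected signal over the 75th percentile of the same array, so that 0 is the signal of a gene at that percentile and 1 unit is a doubling. Differences are De-HA minus FeMnSi on that scale, with the standard error of the fit. Levels of different genes come from different probes and are not compared with each other. The share of probes that exceeded background clearly was 63.5% on De-HA 1, 74.4% on De-HA 2 and 74.1% on De-HA 3. It was 69.2% to 73.2% on FeMnSi arrays, and no spot was saturated. The lowest level well above background was -4.84 on De-HA 1, against -5.90 to -5.50 on the other arrays. All 10 osteoblast markers tested were above background, and 4 of them rose on De-HA scaffolds (Ibsp, Alpl, Sp7 and Runx2), against none that fell. Over all genes tested 6.46% rose and 4.29% fell. With the scan as a block none of the 4 markers passed. On leaving out 1 array at a time Ibsp passed in 4 of 6 fits. Alpl, Sp7 and Runx2 passed in 1 of 6 each, the fit without FeMnSi 1. With the mean of its probes Ibsp was 0.48 (adjusted p = 0.0569), against 0.79 with its brightest probe, which gave 0.69 within scan 1. The file headers hold 2 scan times: all De-HA arrays and FeMnSi 1 share the first, and FeMnSi 2 and 3 the second. Without FeMnSi 1 the scaffold and the scan coincide, so calls in that fit cannot be told apart from a scan difference. Differences within scan 1, which set the 3 De-HA arrays against FeMnSi 1 alone, are therefore printed beside the pooled ones, and for the collagen chains called so is the adjusted p with the scan as a block. The labels do not say that the samples came from separate cultures, so p-values measure only how these samples varied, and that variation may be technical.

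Of the 36 collagen chains tested, 8 passed an adjusted p of 0.05, which is 22.2% of them, while 10.7% of all genes tested passed. On De-HA scaffolds 7 chains rose (Col2a1, Col8a1, Col11a1, Col8a2, Col4a6, Col27a1 and Col5a1), where the background of genes that rose is 6.46%, and 1 chain fell (Col18a1), where the background is 4.29%. By class, 4 of 11 fibrillar chains rose and none fell, 1 of 5 basement membrane chains rose, none of 6 FACIT chains passed, and 2 of the 14 other chains rose while 1 fell. At an unadjusted p of 0.05, 16 chains passed, against 33.6% of all genes. The De-HA and FeMnSi arrays did not overlap in 16 chains, against 39.1% of all genes. Each of these arrays was read from bulk RNA, in which fewer cells of a type and less RNA per cell cannot be told apart.

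The median difference over the 36 chains was 0.26, and 26 differences were above 0 and 10 below it. Over all genes tested the median difference was 0.10, so chain differences can be read relative to that shift. The shift depends on the scaling: it was 0.00350 after quantile normalization, where the collagen median was 0.11, and within scan 1 the collagen median was 0.11 against 0.05 over all genes. Among all genes called, 60.1% were higher on De-HA scaffolds with the 75th percentile scaling, against 43.8% with quantile normalization, 37.3% with median scaling, 45.2% with normexp background correction and 41.3% in the authors' matrix values. The normexp values were also quantile normalized, so normexp and quantile normalization share that step and are not separate checks. Among collagens, 5 of the 7 chains called with quantile normalization were higher, a setting in which 10.1% of all genes were called. With the scan as a block, 2 chains passed, Col2a1 and Col8a1, while 1.16% of all genes did.

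**Figure D1:**
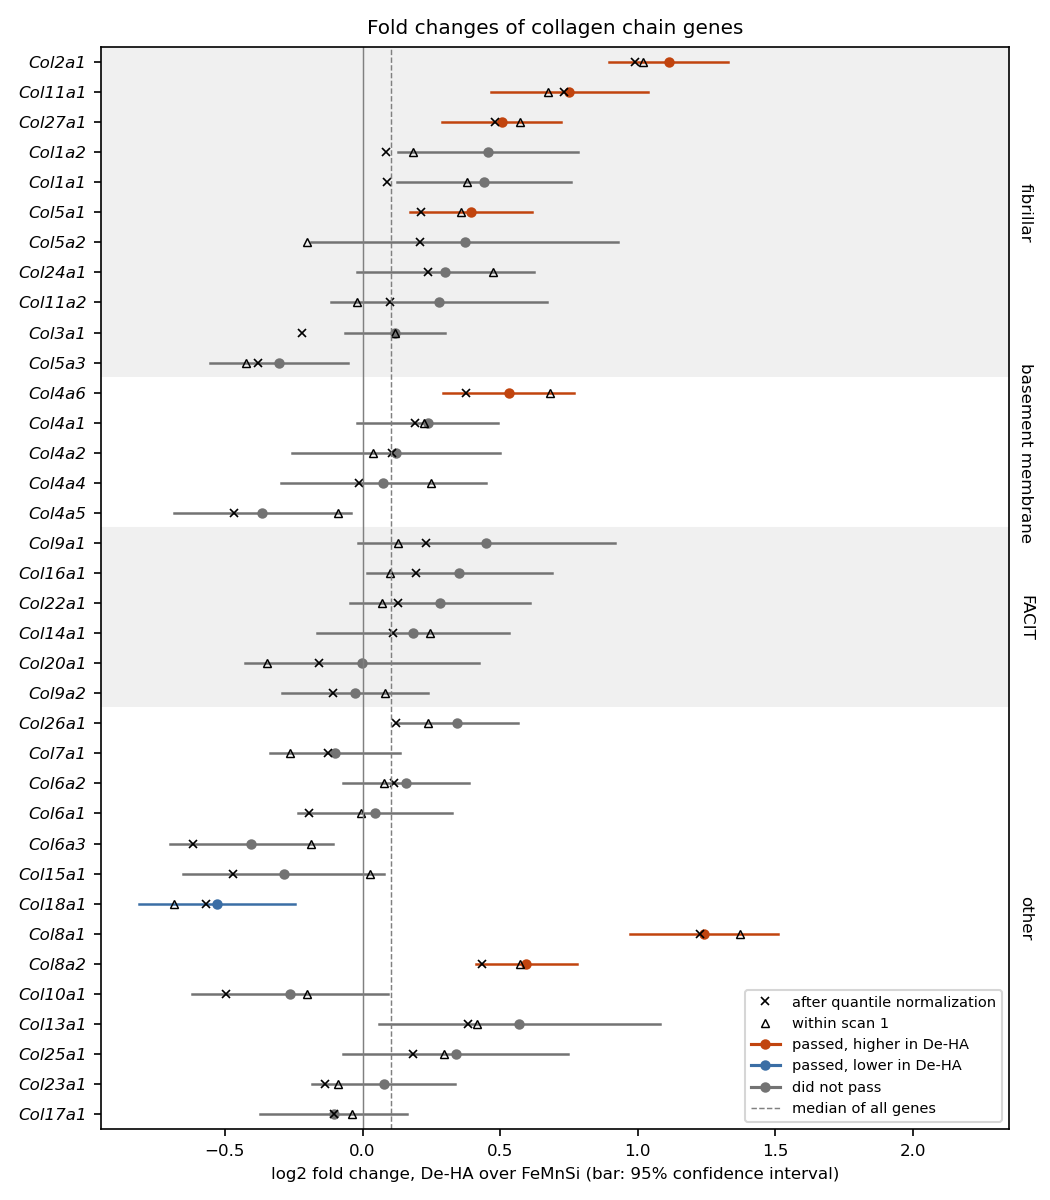
Difference of De-HA minus FeMnSi (log2 fold change, x axis) for each of the 36 collagen chains tested, by class (y axis): dots with bars are the fit with its 95% confidence interval, crosses the value after quantile normalization, triangles the value within scan 1, and the dashed line the median of all genes. Of the 36 dots 26 lie right of 0, those of Col8a1 and Col2a1 farthest, and Col18a1 is the called chain left of 0.

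Among fibrillar chains, Col2a1, the chain of cartilage type II collagen and also made by early skeletal progenitors, had the largest difference of the 11. Its level was 3.39, 3.44 and 3.31 on the De-HA arrays, against 2.36, 2.17 and 2.27 on the FeMnSi arrays. Every De-HA array was above every FeMnSi array, with the arrays of a group lying close together. The means were 3.38 ± 0.07 on De-HA scaffolds and 2.27 ± 0.09 on FeMnSi scaffolds (SD, n = 3 each). The difference was 1.11 ± 0.09 (95% interval 0.90 to 1.33), 2.16-fold higher, with an adjusted p of 0.00234. It ranked 96th from the top of the 15535 genes. Within scan 1 it was 1.02, and it passed with the scan as a block (adjusted p = 0.0256).

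Markers of chondrocytes, the cell type that makes type II collagen in cartilage, were followed beside it. Of 10 markers 6 could be tested, and besides Col2a1 none rose, where 6.46% of all genes rose. Matn3, a cartilage matrilin, was called lower, where 4.29% of all genes fell. No De-HA array had Matn3 well above background. It was kept for testing through the FeMnSi arrays alone, so its call is no support for a fall. The difference is a bound of at least 1.22-fold, from mean signals of -5.89 on De-HA arrays and -5.13 on FeMnSi arrays (adjusted p of the fit = 0.0379). Within scan 1 it was -0.57. The Matn3 call was lost with normexp (adjusted p = 0.111), the intensity trend (adjusted p = 0.0636) and the scan as a block. With a filter that asks for every array to be well above background, Matn3 was not tested. The defining cartilage matrix genes Acan, Comp, Hapln1 and Matn1 had no probe above background on enough arrays. Sox9, the transcription factor that drives Col2a1, differed by 0.15 (adjusted p = 0.216), and by 0.16 within scan 1. The summed signal of the 6 markers, Col2a1 included, was 21.8 to 22.5 times the 75th percentile on De-HA arrays, against 15.1 to 15.6 times on FeMnSi arrays. This sum holds the Col2a1 difference itself and is not separate support for it.

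Type V and type XI chains form minor fibrils that seed and limit the growth of type I and type II fibrils. Col11a1 had levels of 0.73, 1.04 and 0.88 on De-HA arrays, against 0.21, -0.04 and 0.22 on FeMnSi arrays. The groups were apart by more than the spread within either. The means were 0.88 ± 0.15 in De-HA samples and 0.13 ± 0.15 in FeMnSi samples (SD, n = 3 each), a difference of 0.75 ± 0.12 (interval 0.47 to 1.04) or 1.68-fold higher, with an adjusted p of 0.0165. Within scan 1 it was 0.68, and with the scan as a block the adjusted p was 0.115. Its partner chain Col11a2 was dim and differed by 0.28 (adjusted p = 0.265), with -0.02 within scan 1.

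Col5a1, the common chain of type V trimers, had levels of 4.10, 4.27 and 4.30 on De-HA arrays, against 3.87, 3.75 and 3.87 on FeMnSi arrays. All De-HA arrays were the higher ones, by a small margin. The difference was 0.39 ± 0.09, 1.31-fold higher, with an adjusted p of 0.0432, and 0.36 within scan 1. The call did not hold with the scan as a block (adjusted p = 0.222), nor with quantile normalization, where the difference was 0.21 (adjusted p = 0.147).

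Col5a2, the other common type V chain, had levels of 3.83, 4.0 and 3.89 on De-HA arrays, against 4.11, 3.28 and 3.22 on FeMnSi arrays. FeMnSi 1 was above every De-HA array, while FeMnSi 2 and 3 were below them all. The difference was 0.37 ± 0.24 (adjusted p = 0.291) and -0.20 within scan 1. It was 0.66 without FeMnSi 1 (adjusted p = 0.0117), where scaffold and scan coincide. Col5a3, a rarer type V chain, had levels of 1.60, 1.67 and 1.79 on De-HA arrays, against 2.11, 1.84 and 2.02 on FeMnSi arrays. With the 75th percentile scaling it was the only fibrillar chain with a negative difference, -0.30 ± 0.11, which did not pass (adjusted p = 0.103) although the groups were apart. It passed with quantile normalization at -0.38 (adjusted p = 0.0490), with normexp at -0.40 (adjusted p = 0.0188) and in the authors' matrix at -0.40 (adjusted p = 0.0424), and it was -0.42 within scan 1.

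Col27a1, a fibrillar chain known from cartilage at sites of calcification, had levels of -1.73, -1.72 and -1.57 on De-HA arrays, against -2.24, -2.19 and -2.10 on FeMnSi arrays. The 2 groups were apart. The difference was 0.51 ± 0.09 (interval 0.29 to 0.72), 1.42-fold higher, with an adjusted p of 0.0232. Within scan 1 it was 0.57, with an adjusted p of 0.0863 with the scan as a block. Col24a1, a related fibrillar chain of developing bone, differed by 0.30 (adjusted p = 0.166), and by 0.47 within scan 1.

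The chains of the main bone fibrils did not pass the test. Col1a1 had levels of 6.40, 6.0 and 5.97 on De-HA arrays, against 5.74, 5.69 and 5.61 on FeMnSi arrays. Col1a2 had levels of 7.13, 6.96 and 6.99 on De-HA arrays, against 6.84, 6.37 and 6.50 on FeMnSi arrays. In both genes the De-HA arrays were all above the FeMnSi arrays, with the highest value on De-HA 1. The difference was 0.44 ± 0.13 for Col1a1 (interval 0.13 to 0.76, adjusted p = 0.0771) and 0.46 ± 0.14 for Col1a2 (interval 0.13 to 0.79, adjusted p = 0.0766). Within scan 1 the difference was 0.38 for Col1a1 and 0.18 for Col1a2, and after quantile normalization it was 0.09 for both. Without FeMnSi 1, a fit in which scaffold and scan coincide, Col1a2 passed (adjusted p = 0.0156).

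Col3a1, whose homotrimers form thin fibrils in soft tissue and early bone, had levels of 6.02, 6.05 and 6.06 on De-HA arrays, against 5.92, 5.94 and 5.91 on FeMnSi arrays. The groups were apart but close, since the arrays of each varied little. The difference was 0.12 ± 0.08 (interval -0.06 to 0.30, adjusted p = 0.298), near the shift of all genes and the same within scan 1, and its sign turned to -0.22 with quantile normalization, normexp background correction and the authors' matrix values.

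**Figure D2:**
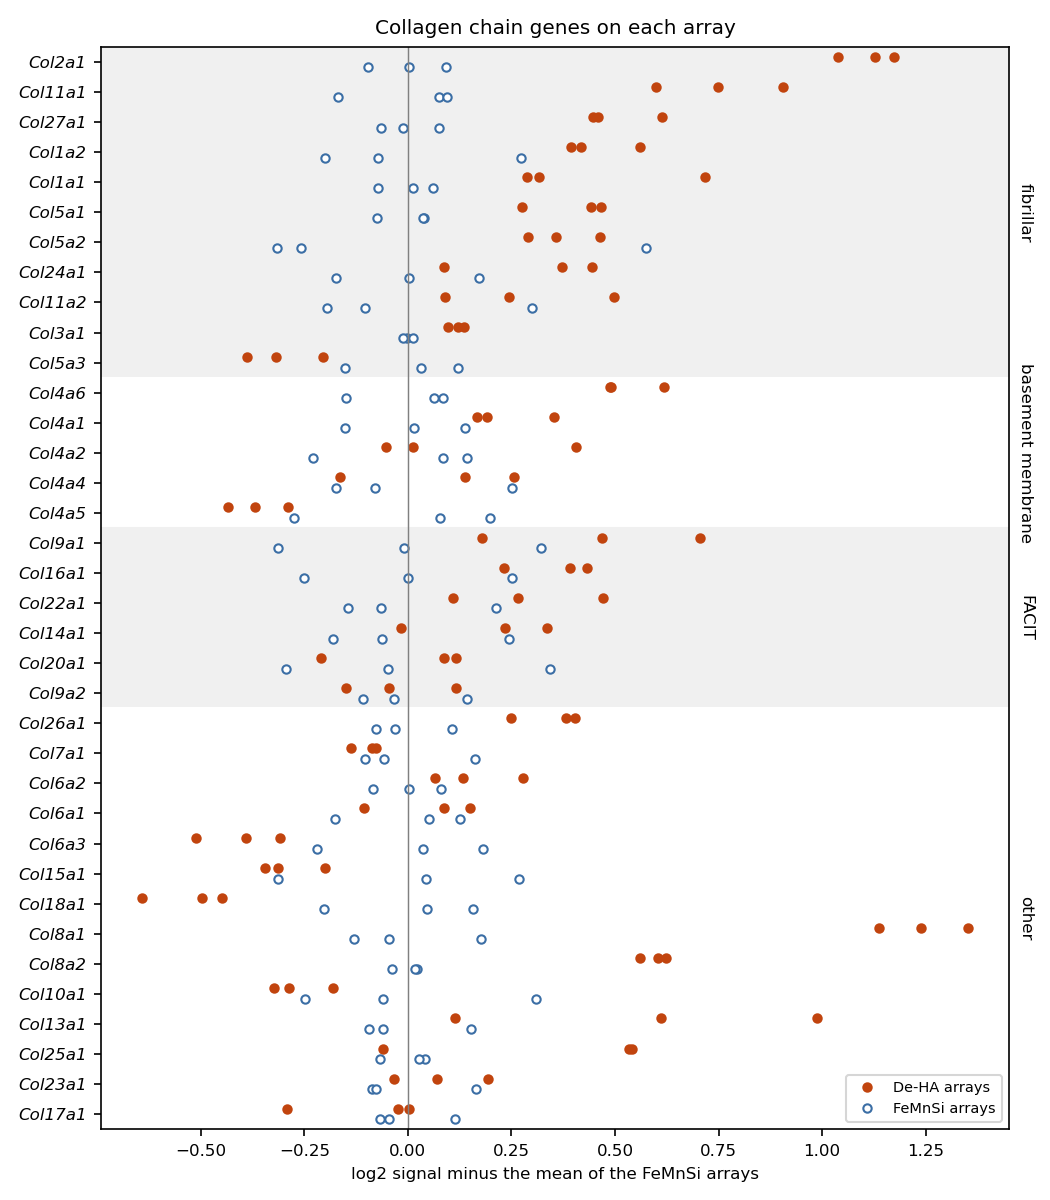
Level of each of the 36 collagen chains tested on each array, as the log2 signal minus the mean of the FeMnSi arrays (x axis), by class (y axis), with filled points for De-HA arrays and open points for FeMnSi arrays. The points do not overlap in 16 chains, and in Col5a2 the open point of FeMnSi 1 lies right of all filled points.

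Type IV collagen trimers are built from different combinations of the Col4a chains, whose genes lie in head-to-head pairs. On the X chromosome, Col4a6 and Col4a5 are transcribed away from each other from starts 1343 bases apart in RefSeq GRCm38.p6, and the 2 chains can assemble in the same network. The differences of these neighbours had opposite signs, though only that of Col4a6 passed. For that reason their promoter windows, 250 bases before and 50 bases after the annotated start, are shown. Each is printed 5′ to 3′ on the strand of its gene. Capitals mark matches, on either strand, to any of 6 motifs. They are the CCAAT box, which binds NF-Y, by those letters alone, and the GC box of the Sp factors, written GGGCGG. The TATA box, bound by the basal machinery, was written TATAAA, and the core site of RUNX factors was written TGTGGT. The short SMAD element of TGF-beta signalling was written CAGAC, and the site of the TEAD factors was written CATTCC.
Col4a6 (chrX:141474027-141474326, minus strand): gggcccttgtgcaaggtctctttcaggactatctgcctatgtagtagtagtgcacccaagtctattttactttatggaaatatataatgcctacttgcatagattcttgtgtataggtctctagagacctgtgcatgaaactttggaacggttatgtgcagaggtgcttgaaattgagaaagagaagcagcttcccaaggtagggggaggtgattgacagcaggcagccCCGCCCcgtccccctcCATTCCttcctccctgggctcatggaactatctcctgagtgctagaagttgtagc
Col4a5 (chrX:141475169-141475468, plus strand): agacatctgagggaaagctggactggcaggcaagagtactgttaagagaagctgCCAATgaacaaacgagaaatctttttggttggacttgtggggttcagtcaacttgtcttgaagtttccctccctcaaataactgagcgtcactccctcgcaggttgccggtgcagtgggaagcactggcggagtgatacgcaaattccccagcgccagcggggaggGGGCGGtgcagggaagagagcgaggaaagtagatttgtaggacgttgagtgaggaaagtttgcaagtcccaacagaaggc
The windows do not overlap. Col4a6 holds 1 GC box and 1 TEAD match, and its window is 48.3% GC. Col4a5 holds 1 CCAAT box and 1 GC box, with 52.7% GC.

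Col4a6 had levels of 3.38, 3.38 and 3.51 on De-HA arrays, against 2.74, 2.98 and 2.95 on FeMnSi arrays. All De-HA arrays were above all FeMnSi arrays. The means were 3.42 ± 0.08 in De-HA samples and 2.89 ± 0.13 in FeMnSi samples (SD, n = 3 each). The difference was 0.53 ± 0.10 (interval 0.29 to 0.77), 1.45-fold higher, with an adjusted p of 0.0261. It was 0.68 within scan 1 (adjusted p = 0.0590 with the scan as a block) and 0.37 after quantile normalization, where it did not pass (adjusted p = 0.0968). A second kept probe of Col4a6 differed by 0.72.

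Col4a5 had levels of 2.05, 1.99 and 2.13 on De-HA arrays, against 2.15, 2.62 and 2.50 on FeMnSi arrays. Every De-HA array was below every FeMnSi array, by little in the case of FeMnSi 1. The difference was -0.36 ± 0.14 (adjusted p = 0.119) and -0.09 within scan 1. It passed without FeMnSi 1 (adjusted p = 0.0195), where scaffold and scan coincide. The per-array difference of Col4a6 minus Col4a5, a pair chosen after its values were seen, was 0.90 higher in De-HA samples, and 0.77 within scan 1. The arrays of the groups did not overlap in it, which gives the smallest p that 3 against 3 allows (exact two-sided permutation test, p = 0.1).

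Col4a1 and Col4a2 build the type IV trimer found in nearly all basement membranes and start 21 bases apart on opposite strands. Col4a1 had levels of 1.23, 1.21 and 1.39 on De-HA arrays, against 1.06, 0.89 and 1.18 on FeMnSi arrays. These did not overlap, with a difference of 0.24 ± 0.11 that did not pass (adjusted p = 0.170) and 0.22 within scan 1. Col4a2 differed by 0.12 (adjusted p = 0.608), with overlapping arrays, and by 0.037 within scan 1. Col4a4, a chain known from the kidney glomerulus, was dim and differed by 0.076 (adjusted p = 0.749), with 0.25 within scan 1 and -0.011 after quantile normalization.

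FACIT chains had levels below the 75th percentile except Col16a1, and none of the 6 tested passed (limma, with 1 at an unadjusted p of 0.05). In none of them were the 2 groups apart, and the median difference was 0.23, against 0.10 over all genes. Col16a1, which associates with small fibrils, had levels of 3.76, 3.60 and 3.80 on De-HA arrays, against 3.62, 3.12 and 3.37 on FeMnSi arrays. FeMnSi 1 lay among the De-HA arrays. The difference was 0.35 ± 0.14 (adjusted p = 0.137) and 0.10 within scan 1. Col9a1, a chain of the type IX collagen that covers cartilage fibrils, had levels of -4.38, -4.91 and -4.62 on De-HA arrays, against -4.77, -5.10 and -5.40 on FeMnSi arrays. These overlapped, and the difference was 0.45 ± 0.20 (adjusted p = 0.158), with 0.13 within scan 1. Its partner Col9a2 differed by -0.027 (adjusted p = 0.878), and by 0.082 within scan 1. Col22a1, known from the junctions of muscle and tendon, differed by 0.28 (adjusted p = 0.190), with 0.070 within scan 1. Col14a1, which binds type I fibrils, differed by 0.18 (adjusted p = 0.396), with 0.25 within scan 1. Col20a1 differed by -0.0024 (adjusted p = 0.994), with -0.35 within scan 1.

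Type VIII collagen is a short-chain network collagen of vessel walls and of the membrane under the corneal endothelium, built from Col8a1 and Col8a2 chains. Both chain genes rose on De-HA scaffolds. Their promoter windows are shown for that reason, with capitals for the same 6 motifs.
Col8a1 (chr16:57754688-57754987, minus strand): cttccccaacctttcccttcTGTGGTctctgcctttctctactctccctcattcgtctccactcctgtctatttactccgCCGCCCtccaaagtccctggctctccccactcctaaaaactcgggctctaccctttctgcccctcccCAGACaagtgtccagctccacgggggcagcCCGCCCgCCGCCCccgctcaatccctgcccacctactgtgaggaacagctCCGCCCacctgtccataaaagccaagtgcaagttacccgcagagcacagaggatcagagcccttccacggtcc
Col8a2 (chr4:126286544-126286843, plus strand): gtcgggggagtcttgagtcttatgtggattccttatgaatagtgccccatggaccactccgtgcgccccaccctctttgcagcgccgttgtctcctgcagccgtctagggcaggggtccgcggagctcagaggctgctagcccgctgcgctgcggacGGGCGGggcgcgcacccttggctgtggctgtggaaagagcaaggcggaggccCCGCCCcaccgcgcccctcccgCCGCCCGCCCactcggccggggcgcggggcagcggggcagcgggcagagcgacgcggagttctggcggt
Each window holds 4 GC boxes, 2 of which overlap in Col8a2. Col8a1 also holds 1 RUNX and 1 SMAD match, and its window is 60.3% GC. The Col8a2 window is 71.7% GC and has 32 CpG dinucleotides.

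Col8a1 had levels of 0.13, 0.02 and -0.08 on De-HA arrays, against -1.35, -1.27 and -1.04 on FeMnSi arrays. The gap between the groups was wider than the range of either. The means were 0.02 ± 0.11 in De-HA samples and -1.22 ± 0.16 in FeMnSi samples (SD, n = 3 each). The difference was 1.24 ± 0.11 (interval 0.97 to 1.51), 2.37-fold higher, with an adjusted p of 0.00332. It had the largest difference of the 36 chains and ranked 62nd from the top of all 15535 genes. Within scan 1 it was 1.37, it passed with the scan as a block (adjusted p = 0.0224), and it was 1.23 after quantile normalization.

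Col8a2 had levels of 3.87, 3.91 and 3.93 on De-HA arrays, against 3.33, 3.33 and 3.27 on FeMnSi arrays. The arrays of each group lay within 0.1 units of each other and the groups were apart. The difference was 0.60 ± 0.08 (interval 0.41 to 0.78), 1.51-fold higher, with an adjusted p of 0.0102. It was 0.57 within scan 1, where the adjusted p with the scan as a block was 0.0660, and 0.43 after quantile normalization (adjusted p = 0.0243). A second probe differed by 0.78. The per-array difference of Col8a1 minus Col8a2, a pair chosen after its values were seen, was 0.65 higher in De-HA samples and 0.80 within scan 1, with no overlap of the groups (exact two-sided permutation test, p = 0.1, the smallest 3 against 3 allows). Col10a1, the short-chain collagen of hypertrophic cartilage, was well above background on 2 of 3 De-HA arrays and all FeMnSi arrays, and differed by -0.26 (adjusted p = 0.247), with -0.20 within scan 1.

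Col18a1, the basement membrane multiplexin whose C-terminal fragment is endostatin, was the chain that fell. RefSeq gives it 2 starts with a window each, and both are shown because the array does not say which transcripts changed.
Col18a1 (chr10:77113656-77113955, minus strand): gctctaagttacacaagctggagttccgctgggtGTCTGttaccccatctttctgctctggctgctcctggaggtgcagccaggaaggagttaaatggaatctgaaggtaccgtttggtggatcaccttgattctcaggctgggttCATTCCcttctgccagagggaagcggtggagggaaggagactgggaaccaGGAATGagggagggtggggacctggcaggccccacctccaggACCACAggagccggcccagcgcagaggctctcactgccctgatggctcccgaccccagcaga
Col18a1 (chr10:77166481-77166780, minus strand): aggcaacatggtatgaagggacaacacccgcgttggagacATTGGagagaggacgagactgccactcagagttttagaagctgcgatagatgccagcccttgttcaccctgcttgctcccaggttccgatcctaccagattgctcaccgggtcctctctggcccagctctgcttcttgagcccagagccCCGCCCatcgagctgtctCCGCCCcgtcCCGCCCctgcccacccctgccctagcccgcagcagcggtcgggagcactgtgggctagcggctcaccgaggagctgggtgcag
The first window holds 1 RUNX, 1 SMAD and 2 TEAD matches and no GC box, with 59.7% GC. The other holds 1 CCAAT box and 3 GC boxes, with 63.3% GC.

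Col18a1 had levels of 0.63, 0.83 and 0.78 on De-HA arrays, against 1.43, 1.07 and 1.32 on FeMnSi arrays. All De-HA arrays were lower than all FeMnSi arrays. The means were 0.74 ± 0.10 in De-HA samples and 1.27 ± 0.18 in FeMnSi samples (SD, n = 3 each). The difference was -0.53 ± 0.12 (interval -0.81 to -0.25), 1.44-fold lower, with an adjusted p of 0.0394. It was -0.68 within scan 1, where the adjusted p with the scan as a block was 0.0863, and -0.57 after quantile normalization (adjusted p = 0.0272). A second probe differed by -0.73. Col15a1, the other multiplexin, differed by -0.29 (adjusted p = 0.224) and by 0.027 within scan 1, and its other 2 kept probes differed by 0.48 and 0.56, so its direction depends on the probe.

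Endothelial cells also make type VIII, type XV and type XVIII collagens. Of 8 endothelial markers 3 could be tested. Kdr (0.41, adjusted p = 0.0272, 0.38 within scan 1) and Esam (0.60, adjusted p = 0.0456, 0.37 within scan 1) rose on De-HA scaffolds. Over all genes 6.46% rose. The Esam call was lost with quantile normalization at 0.39 (adjusted p = 0.0545), in the authors' matrix at 0.38 (adjusted p = 0.0563) and with normexp at 0.083 (adjusted p = 0.322), and with median scaling both calls were lost. Neither Kdr nor Esam passed with the scan as a block. On leaving out 1 array at a time each passed in 1 of 6 fits, the one without FeMnSi 1. Pecam1, also tested, did not pass (0.37, adjusted p = 0.0602, 0.41 within scan 1). The defining genes Cdh5, Cldn5, Tek, Tie1 and Vwf had no probe above background on enough arrays. The summed signal of the 3 markers was 0.838 to 0.932 times the 75th percentile on De-HA arrays, against 0.655 to 0.673 times on FeMnSi arrays. Their part in the type VIII result was not tested.

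Type VI collagen, a beaded filament around cells, is built from Col6a1, Col6a2 and another chain, usually Col6a3. Col6a3 had levels of 4.13, 3.93 and 4.05 on De-HA arrays, against 4.22, 4.62 and 4.48 on FeMnSi arrays. All De-HA arrays were below the FeMnSi arrays, FeMnSi 1 being the nearest. The difference was -0.40 ± 0.13 (adjusted p = 0.0816), -0.19 within scan 1 and -0.62 after quantile normalization (adjusted p = 0.0626). It passed without FeMnSi 1 (adjusted p = 0.0222), where scaffold and scan coincide. Col6a2 differed by 0.16 (adjusted p = 0.274), and by 0.077 within scan 1. Col6a1 differed by 0.044 (adjusted p = 0.809), with -0.0065 within scan 1, -0.20 after quantile normalization, -0.043 with median scaling, -0.14 with normexp and -0.19 in the authors' matrix values.

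Of the transmembrane collagens, Col13a1, found at cell adhesion sites and the neuromuscular junction, had levels of -3.91, -4.78 and -4.28 on De-HA arrays, against -4.74, -4.95 and -4.99 on FeMnSi arrays. De-HA 2 lay among the FeMnSi arrays. The difference was 0.57 ± 0.22 (adjusted p = 0.121), and 0.42 within scan 1. Col25a1 differed by 0.34 (adjusted p = 0.204), and by 0.30 within scan 1. Col17a1, a hemidesmosome protein, differed by -0.10 (adjusted p = 0.531), and by -0.038 within scan 1. Col23a1 differed by 0.077 (adjusted p = 0.641), with -0.088 within scan 1 and a negative sign under all 4 other scalings. Of the remaining chains, which are not transmembrane, Col26a1 had levels of -4.85, -5.00 and -4.87 on De-HA arrays, against -5.14, -5.33 and -5.28 on FeMnSi arrays. It was apart between the groups but dim. It differed by 0.34 ± 0.09 (adjusted p = 0.0616), and by 0.24 within scan 1. Col7a1, which forms anchoring fibrils, differed by -0.10 (adjusted p = 0.493), and by -0.26 within scan 1.

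**Figure D3:**
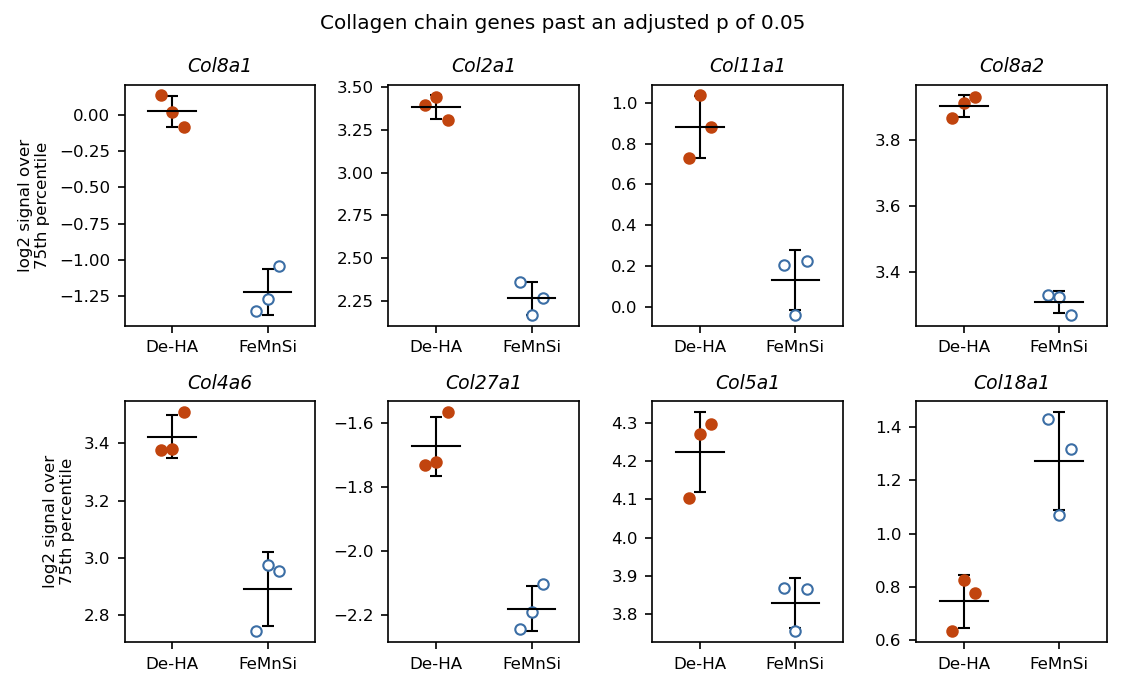
Level (log2 signal over the 75th percentile of the array, y axis, on a scale of its own in each panel) of the 8 collagen chains past the threshold, De-HA left of FeMnSi, with points for the 3 arrays of a group, a line for the mean and bars for the SD. The De-HA points lie above the FeMnSi points in 7 panels and below them in that of Col18a1.

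The members left were not tested. Col12a1 was not analysed here, since no probe was matched to it. Col4a3, Col6a4, Col6a5, Col6a6, Col9a3, Col19a1 and Col28a1 had probes, but none that was well above background on at least 3 arrays. The filter on background takes no account of the group. Of the chains tested, Col26a1, Col15a1, Col10a1 and Col23a1 were too dim on 1 of the 3 De-HA arrays to be well above background there. With normexp, the differences of the dim chains Col9a1, Col11a2, Col13a1 and Col26a1 shrank to 0.018, 0.027, 0.13 and 0.022. Those of Col10a1 and Col15a1 shrank to -0.075 and -0.13. The normexp setting adds a fixed offset to every signal, which by itself narrows the differences of dim genes. Fabp4 and Trem2, markers that are also dim and still passed there, narrowed from -1.99 to -0.85 and from -1.70 to -0.78. Shrinkage of a dim gene with normexp therefore does not tell whether its difference came from background. The same holds for the calls of Matn3, Esam, Ptprc and Lyz2 lost with normexp.

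The per-array difference between chains that share a trimer cancels the scaling of the array. Of 5 such pairs, none could pass, since 3 against 3 arrays cannot give less than 0.1, and the values are a description. Col1a1 minus Col1a2 differed by -0.02 between De-HA and FeMnSi samples (exact two-sided permutation test, p = 1), and by 0.20 within scan 1. Col5a1 minus Col5a2 differed by 0.02 (exact permutation test, p = 1), and by 0.56 within scan 1, where FeMnSi 1 had the high Col5a2 level given above. Col4a1 minus Col4a2 differed by 0.12 (exact permutation test, p = 0.8), and by 0.19 within scan 1. Col6a1 minus Col6a2 differed by -0.11 and Col6a1 minus Col6a3 by 0.45 (exact permutation test, p = 0.2 for each, and 0.5 after Benjamini-Hochberg adjustment over the 5 pairs), with -0.084 and 0.18 within scan 1. Col6a1 minus Col6a3 was 0.54, 0.93 and 0.88 on De-HA arrays, against 0.61, -0.02 and 0.43 on FeMnSi arrays, so that De-HA 1 lay below FeMnSi 1.

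**Figure D4:**
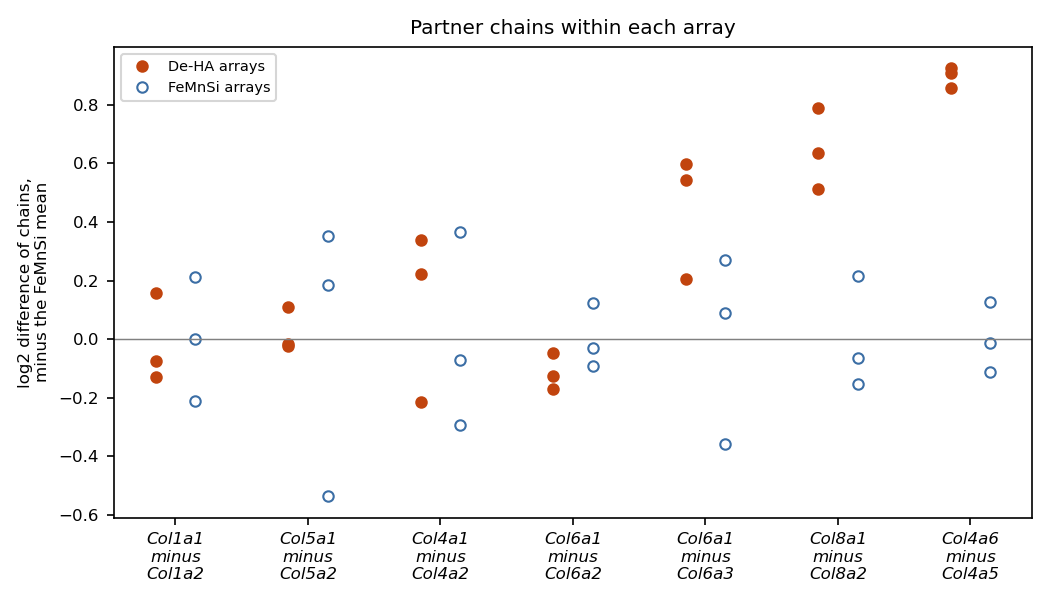
Difference between the levels of 2 collagen chains on each array (log2, y axis, centred on the FeMnSi mean), De-HA left of FeMnSi, for 5 fixed pairs and 2 pairs chosen after their values were seen. The De-HA and FeMnSi points are apart for Col8a1 minus Col8a2 and Col4a6 minus Col4a5 and overlap for the 5 fixed pairs.

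Most chains rest on 1 probe. The 43 genes had 63 probes, of which 48 were kept, and 29 genes had a single probe on the array. Of the 9 genes with several kept probes, 3 had probes that differed in sign (Col15a1, Col20a1 and Col23a1). In Col4a6, Col8a2 and Col18a1, the called chains with a second kept probe, both probes had the same sign.

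RefSeq promoter windows of 300 bases were available for 35 chain genes (38 windows), including 7 of the 8 that passed, and Col2a1 is named only. A GC box stood in 60.5% of the collagen windows, against 35.7% of all 32851 windows, and in 7 of the 8 windows of chains that passed. The collagen windows had a median GC content of 59.8%, against 52.7% in all windows. A CCAAT box stood in 34.2% of collagen windows, against 37.4% of all, and a TATA box in 13.2%, against 13.6%. RUNX matches stood in 7.89% of collagen windows, against 16.8% of all, SMAD matches in 52.6%, against 49.6%, and TEAD matches in 13.2%, against 14.7%. A match describes letters in the window and not a bound site.

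Genes that act on collagens were grouped by role, and the share called is to be read against 10.7% of all genes. Among 26 tested genes of chain modification and folding, 2 rose and 1 fell (median 0.11, against 0.10 over all genes). Fkbp10, a folding isomerase of the endoplasmic reticulum, rose by 0.47 (adjusted p = 0.0301, 0.37 within scan 1), and Serpinh1, the collagen chaperone HSP47, rose by 0.35 (adjusted p = 0.0378, 0.32 within scan 1). Both calls were lost under all 4 other scalings. Fkbp10 was 0.22 after quantile normalization (adjusted p = 0.121) and in the authors' matrix and 0.20 with normexp, where Serpinh1 was 0.036 after quantile normalization, 0.024 in the matrix and -0.020 with normexp. Loxl1, a crosslinking oxidase better known for elastin, fell by 0.57 (adjusted p = 0.0165), and by 0.70 within scan 1. With the mean of its probes the Loxl1 difference was -0.37, which did not pass (adjusted p = 0.103).

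Among 7 tested genes of procollagen cleavage, 1 rose (median 0.20). Pcolce2, an enhancer of the protease that removes the C-propeptide, had levels of 0.00, 0.23 and -0.11 on De-HA arrays, against -1.28, -1.22 and -1.32 on FeMnSi arrays. Those groups were far apart, with a difference of 1.31 ± 0.11, 2.48-fold higher (adjusted p = 0.00242), and 1.32 within scan 1. Among 10 tested genes of collagen breakdown, none rose and 1 fell (median 0.05): Timp1, an inhibitor of matrix metalloproteinases, differed by -0.49 (adjusted p = 0.0270), with -0.45 within scan 1. Of 13 tested collagen receptors and binding proteins, Adgrg6, an adhesion receptor that binds type IV collagen, rose by 0.40 (adjusted p = 0.0403, 0.31 within scan 1) and Adgrg1, which binds type III collagen, differed by -0.81 (adjusted p = 0.0223, -0.98 within scan 1). The list median was 0.11, and Adgrg6 missed the threshold with median scaling (adjusted p = 0.117) and in the authors' matrix (adjusted p = 0.0555).

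Of 16 tested proteins that take part in fibril assembly, 3 rose and 2 fell (median 0.15). Omd, a leucine-rich proteoglycan of mineralised tissue, had levels of 1.46, 1.82 and 1.48 on De-HA arrays, against -0.67, -0.95 and -0.75 on FeMnSi arrays. It rose by 2.37 ± 0.13 (adjusted p = 0.000934), 5.19-fold, and by 2.25 within scan 1. Ogn rose by 0.99 (adjusted p = 0.00795, 1.19 within scan 1) and Aspn by 0.83 (adjusted p = 0.00801, 0.93 within scan 1), both small proteoglycans of the same family. Tgfbi, a collagen-binding matrix protein, differed by -0.74 (adjusted p = 0.0166, -0.59 within scan 1), and Matn2 was the other that fell. Of 18 tested basement membrane partners, 2 rose (median 0.29). Npnt, an integrin ligand of basement membranes, rose by 2.32 ± 0.17 (adjusted p = 0.00158), 4.99-fold, and by 1.97 within scan 1. Lama4, a laminin chain, rose by 0.42 (adjusted p = 0.0290, 0.38 within scan 1), and missed the threshold with median scaling (adjusted p = 0.0732).

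Among 28 tested regulators of collagen genes, 3 rose and none fell (median 0.04). Cebpd rose by 0.90 (adjusted p = 0.0138), and by 0.75 within scan 1. Sp7 and Runx2, the transcription factors of the osteoblast lineage, rose by 0.64 (adjusted p = 0.0308, 0.47 within scan 1) and 0.56 (adjusted p = 0.0309, 0.57 within scan 1), and both also stand in the osteoblast marker list. None of the 16 tested proteins with a collagen domain but no collagen symbol passed, while 5 did at an unadjusted p of 0.05 (limma, median 0.13). The smallest p-values there were of C1qtnf5, which differed by -0.54 (adjusted p = 0.0551, -0.79 within scan 1), and C1qtnf2, which differed by 0.70 (adjusted p = 0.0564, 0.36 within scan 1). With the scan as a block, Omd, Ogn, Aspn, Npnt, Pcolce2 and Loxl1 passed among the genes named in these lists of collagen-related roles. On leaving out 1 array at a time, Fkbp10, Serpinh1, Timp1, Adgrg6, Lama4, Sp7 and Runx2 passed only without FeMnSi 1, where scaffold and scan coincide.

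Markers of further cell types are given as measured, beside 6.46% of all genes that rose and 4.29% that fell. The summed signal of the 10 osteoblast markers, in which Col1a1 itself stands, was 104 to 131 times the 75th percentile on De-HA arrays, against 89.6 to 99.3 times on FeMnSi arrays. That sum holds the Col1a1 difference and is not separate from it. Of 5 tested adipocyte markers none rose and Fabp4 fell (-1.99, with -1.97 within scan 1), with sums of 0.237 to 0.269 on De-HA arrays, against 0.314 to 0.365 on FeMnSi arrays. The other 4 differences were above 0 and did not pass, and the median of the 5 was 0.29. That adipocyte sum holds the Fabp4 difference and does not show a fall of the list. Of 6 tested macrophage markers, Adgre1 (0.77, with 0.85 within scan 1) and Ptprc (0.55, with 0.34) rose and Trem2 (-1.70, with -1.81) and Lyz2 (-0.39, with -0.44) fell, with sums of 4.02 to 4.49 on De-HA arrays, against 3.16 to 4.40 on FeMnSi arrays. Most of that macrophage sum is Itgam, whose arrays overlapped between the groups and which did not pass (0.24, adjusted p = 0.428, 0.56 within scan 1). The Ptprc call was lost with quantile normalization (0.38, adjusted p = 0.118), in the authors' matrix (0.37), with median scaling (0.47) and with normexp (0.12), and the Lyz2 call with normexp (-0.18, adjusted p = 0.101). Of these markers Fabp4 and Trem2 passed with the scan as a block. On leaving out 1 array at a time, Ptprc and Lyz2 passed only without FeMnSi 1, where scaffold and scan coincide. The part of these lists in the collagen results was not tested.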

How the data were processed

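Gene expression was measured on 1-colour Agilent arrays, 1 per sample, with 3 De-HA and 3 FeMnSi samples. Per the submitters' processing notes, spots were quantified in Agilent Feature Extraction 11.0.1.1. The deposited spot signals are linear intensity values; per the file headers, each array was corrected for background and for spatial trend by itself, with no scaling across arrays. The authors' deposited matrix holds log2 values. Its column medians are 5.78 on all arrays and its r with the log2 scanner signal is 0.997 to 1.00. How it was made is not given in the sources used here, so it served as an alternative only.

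Each array had 44397 spots, 1377 of them controls, and 39429 probes. Each array's log2 signals were shifted by their 75th percentile, taken without control spots, outlier spots were dropped and replicate spots averaged. Of all probes, 28380 exceeded background clearly on 3 or more of the 6 arrays, whatever the group. Those with a value on every array once outlier spots were dropped were kept (28175 were). On the array, 12195 probes carried no gene symbol. Probes were named through RefSeq accessions of assembly GRCm38.p6. A gene was read from its brightest probe by the mean of the arrays, which left 15535 genes. The number of arrays limits the precision.

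De-HA was compared with FeMnSi by lmFit and eBayes of limma 3.58.1, run in R 4.3.3, with Benjamini-Hochberg adjustment over all genes and a threshold of 0.05. Files were read with the R package data.table (version 1.17.8) and figures drawn with matplotlib 3.10.9 in Python 3.11.15. Partner chains were compared with an exact permutation test over arrays. The scripts were tested on simulated data. Alternatives were quantile normalization, median scaling, normexp background correction (offset 50, on the median spot and background signals, followed by quantile normalization), the authors' matrix, other probe filters, the mean of a gene's probes, outlier spots kept, an intensity trend, the scan as a block, scan 1 alone, a replicate block and leaving out each array. All collagen chains tested are named, and of each related list the members that passed, up to 4 with the smallest p-values, or the 2 smallest where none passed. Matn2, Sox9, Itgam and the pairs Col8a1 with Col8a2 and Col4a6 with Col4a5 stand outside that rule, picked once their values were known. The members and lists were chosen with earlier results of these data known. Promoter sequences come from RefSeq, assembly GRCm38.p6.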

Additional observations from a re-analysis of the deposited data

How the results depend on the processing

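Of the 8 collagen chains called, Col2a1 and Col8a1 passed under every alternative run except scan 1 alone, where no chain passed (10 of 36 at an unadjusted p of 0.05, limma). The number of collagen chains called was 7 with quantile normalization, normexp or the authors' matrix, 5 with median scaling, 4 without a filter on dim probes, 2 with the scan as a block, 0 in scan 1 alone and 3 with a replicate block (Col2a1, Col8a1 and Col8a2). Same-numbered arrays had correlations of their deviations of 0.0070, -0.11 and 0.12, so the replicate numbers were not taken to pair the samples. The 7 held Col5a3 as an added chain each time. With the intensity trend the count was 10, with Col1a1 and Col6a3 added. Leaving out 1 array gave 2 to 16: 4 without De-HA 1, 3 without De-HA 2, 2 without De-HA 3 or FeMnSi 3, 16 without FeMnSi 1 and 5 without FeMnSi 2. Col2a1 and Col8a1 passed in all 6 of these fits, Col8a2 in 4, Col11a1 in 3, Col18a1 in 2, and Col4a6, Col27a1 and Col5a1 in 1, the fit without FeMnSi 1. That fit added Col1a2, Col4a5, Col5a2, Col6a3, Col9a1, Col15a1, Col16a1 and Col26a1. Its De-HA arrays are all from the first scan and its FeMnSi arrays all from the second. Its calls, of collagens and over all genes, therefore cannot be told apart from a scan difference. These counts are to be read against the share of all genes called, 10.7% in the main fit. That share was 10.1% with quantile normalization and in the authors' matrix, 12.2% with normexp, 7.98% with median scaling and 15.4% with the intensity trend. It was 2.52% without the filter, 1.16% with the scan as a block and 4.46% with a replicate block. Without De-HA 1, 2 or 3 it was 3.3%, 2.41% or 1.51%. Without FeMnSi 1, 2 or 3 it was 29.7%, 3.37% or 1.46%. Over all genes the count of 1669 became 519 without the filter, 180 with the scan as a block and 693 with a replicate block. On leaving out 1 array it was 227 to 4611, the highest without FeMnSi 1. The cause was not tested. Without the filter on dim probes a number of the related genes called also missed the threshold, and on leaving out any array but FeMnSi 1 a number of them did. Fkbp10, Serpinh1, Timp1, Adgrg6, Lama4, Matn3, Ptprc and Lyz2 each passed in 1 of 6 leave-one-out fits, the one without FeMnSi 1. Beyond the settings already named beside a chain, Col4a6 missed the threshold with median scaling and with normexp (adjusted p = 0.0636 each) and in the authors' matrix (0.101), and Col5a1 with median scaling (0.145), normexp (0.0634) and the matrix (0.168). Col27a1 missed it with median scaling (0.0641).

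Across 36 chains and their alternatives, 26 chains kept their sign in all and 10 did not. Quantile normalization, normexp and the authors' matrix turned Col3a1 to -0.22 each, and Col6a1 to -0.20, -0.14 and -0.19. They turned Col23a1 to -0.14, -0.031 and -0.14. Quantile normalization and the matrix turned Col4a4 to -0.011 and -0.025. Median scaling turned Col4a4 to -0.010, Col6a1 to -0.043 and Col23a1 to -0.0099, and normexp turned the chaperone Serpinh1 to -0.020. With the scan as a block and in scan 1 alone, Col5a2 was -0.20, Col11a2 -0.021, Col6a1 -0.0065, Col23a1 -0.088, Col15a1 0.027 and Col9a2 0.082. The mean of a gene's probes gave 0.25 for Col15a1 and 0.046 for Col20a1. Leaving out 1 array at a time, the sign also turned in Col20a1 (-0.15 to 0.17), Col9a2 (-0.098 to 0.045), Col4a2 (-0.020 to 0.21), Col6a1 (-0.044 to 0.12) and Col4a4 (-0.014 to 0.20). Among partner chains, Col1a1 minus Col1a2 moved to 0.20 and Col5a1 minus Col5a2 to 0.56 in scan 1, and Col6a1 minus Col6a2 to -0.31 with quantile normalization. Leaving out 1 array gave -0.12 to 0.09 for Col1a1 minus Col1a2, -0.24 to 0.20 for Col5a1 minus Col5a2, -0.03 to 0.30 for Col4a1 minus Col4a2, -0.16 to -0.05 for Col6a1 minus Col6a2 and 0.27 to 0.58 for Col6a1 minus Col6a3.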
